A study of Mus musculus with 20 samples.

Results

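The MYC and MAX network was followed in C2C12 myotubes exposed to hydrogen peroxide (H2O2) at 5 doses. It was taken here as 7 genes, Myc, Mycn, Max, Mxd1, Mxd4, Mxi1 and Mnt, of 12394 gene symbols on the array. Every probe set of the array whose only gene symbol in the platform annotation was one of these names was included. This gave 14 probe sets of 22690, of which 3 represented Mycn, 4 Mxd4, 2 Mxi1, 2 Mnt and 1 each Myc, Max and Mxd1. A filter on dim signals, described with the processing, left 8 of the 14 to be tested, from 5 of the 7 genes, among 14379 probe sets in all. Mycn and Mxd1 had no probe set above that filter.

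MYC proteins are basic helix-loop-helix leucine zipper transcription factors that bind DNA only as a heterodimer with MAX, at the E-box sequence CACGTG, where they generally raise transcription. MXD1, MXD4, MXI1 and MNT pair with MAX as well, occupy the same kind of site and recruit SIN3 corepressor complexes, so the balance between MYC and its antagonists sets the output of shared target genes. In muscle precursors Myc is known as a growth-associated gene whose level declines as cells leave the cell cycle and differentiate.

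C2C12, an established mouse myoblast line, fuses into multinucleated myotubes in low serum. Per the series' design text, the cells had differentiated for 96 h and then received 0, 1, 10, 100 or 1000 µM H2O2, a diffusible oxidant, for 2 h in medium with 0.5% horse serum. No other agent and no genetic change is named for any group, and each consisted of 4 Affymetrix Mouse Genome 430A arrays, 20 in all. The design text calls the replicates independent without naming separate cultures. The p-values therefore cover only the variation among these samples, part or all of which may be technical.

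The cultures expressed the genes of the labelled cell type. Of 21 myotube marker genes, 20 were at or above the filter level on all 20 arrays, among them Myog at 6335 to 8048 signal units, and Myh2 was above it on 0 arrays. Genes of cycling or undifferentiated cells were also present, and 10 of the 11 such markers on the array passed the filter. Mki67, a proliferation marker, lay at 861.1 to 1656, and Myf5 at 208.8 to 391.9. Only the satellite cell marker Pax7 did not pass, being below the filter level on all 20 arrays (42.5 to 90.6). In such bulk RNA, fewer cells of a type and less RNA per cell cannot be told apart. The 5 arrays called replicate 1 here, 1 at each dose, stood apart from the other 15 on the first principal component (28.2% of the variance). Of these, 4 carry that number in their titles, and the array at 10 µM has no number: it was called 1 by order only, and its values grouped with those of the 4. Relative to untreated myotubes, the arrays' median log2 signal differed by -0.07, -0.10, -0.08 and -0.20 at 1, 10, 100 and 1000 µM on average, although every array had been brought to the same trimmed mean, so small differences at 1000 µM depend on the scaling.

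Promoter sequences show where the network's own genes carry its binding motif. RefSeq windows of assembly GRCm38.p6, running from 250 bases before to 50 bases after each transcription start, were given for 6 of the 7 genes in 8 windows, and Myc was named only. The E-box CACGTG, which reads the same on both strands, was found in the windows of 3 genes: Max, Mxd4 and Mnt. It occurred in 7.2% of all 32851 promoter windows of the table, and 8.1% of 27025 genes had it. The match is shown in capitals within 30 bases, 5′ to 3′ on the gene's own strand. Max lies on the minus strand (chr12:76962234-76962263, match starting at position -3 from the start), Mxd4 on the minus strand (chr5:34187912-34187941, position -219) and Mnt on the plus strand (chr11:74830789-74830818, position -123).
Max: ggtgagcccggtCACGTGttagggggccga
Mxd4: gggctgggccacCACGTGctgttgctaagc
Mnt: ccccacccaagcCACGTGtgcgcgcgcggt
A second motif, the antioxidant response element core TGACNNNGC, was searched on both strands because it is the site of NRF2, a factor that responds to peroxide. It was found in windows of Max, Mxd1 and Mxi1, and in 12.4% of all windows. The windows of Mxi1 that hold its 3 annotated starts had 1 such match, on the reverse strand of the second window (chr19:53329198-53329227, plus strand shown, position -205), and no CACGTG.
Mxi1: ttcctcagaaGCAAAGTCAtgtaaattttt
These matches are descriptions of sequence, and the data hold no measurement of binding.

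Myc was the member with the clearest response, higher at 100 µM and higher again at 1000 µM. Myc encodes the activating partner of MAX, and its only probe set, 1424942_a_at, reached the filter level on all 20 arrays. Its signals in replicates 1 to 4 were 512.2, 367.6, 421.4 and 385.0 in untreated myotubes, 569.5, 368.9, 440.2 and 402.3 at 1 µM, and 485.2, 389.5, 451.0 and 452.3 at 10 µM. These 3 groups overlapped. At 100 µM the signals were 840.0, 716.2, 706.6 and 819.0, and at 1000 µM they were 1088, 1018, 1094 and 1134. Each of the 4 arrays at 100 µM was above every array of the 3 lower doses, and each array at 1000 µM was above every array at 100 µM. The group means ± SD were 421.6 ± 64.5, 445.2 ± 87.8, 444.5 ± 39.9, 770.5 ± 68.8 and 1084 ± 47.9 from 0 to 1000 µM (n = 4 each).

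**Figure D1:**
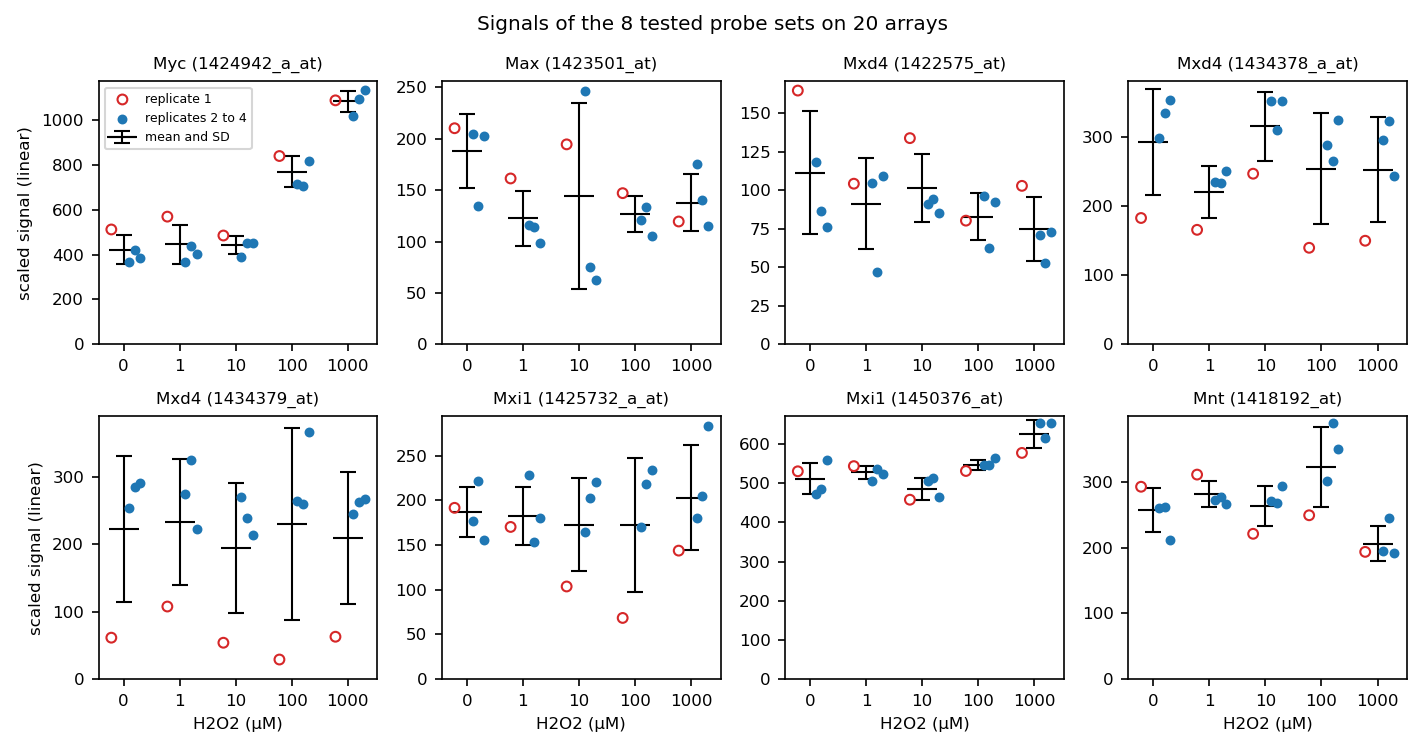
Scaled linear signal (y axis) of the 8 tested probe sets on each array at 0, 1, 10, 100 and 1000 µM H2O2 (x axis). Open red circles are replicate 1, filled blue circles are replicates 2 to 4, and the bars give the mean and SD of 4 arrays. Myc stood at 706.6 to 840.0 at 100 µM and 1018 to 1134 at 1000 µM, above the lower doses. For Mxd4 1434379_at, the replicate 1 array was the lowest at all 5 doses.

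On the log2 scale, Myc rose by 0.88 ± 0.12 (SE) at 100 µM against 0 µM (95% interval 0.62 to 1.13), a 1.84-fold increase with limma adjusted p = 0.000244. At 1000 µM the log2 difference was 1.37 ± 0.12 (1.12 to 1.63), 2.59-fold, with adjusted p = 4.3e-07. The log2 differences at 1 and 10 µM were 0.07 and 0.08 (adjusted p = 0.973 and 0.985). Up to 10 µM the Myc groups overlapped the untreated one, and a single array, 1 µM replicate 1 at 569.5, lay above the highest untreated array at 512.2. Between neighbouring doses, Myc rose 1.73-fold at 100 µM against 10 µM (log2 0.79 ± 0.12, adjusted p = 0.000801) and 1.41-fold at 1000 µM against 100 µM (log2 0.50 ± 0.12, 95% interval 0.24 to 0.75, adjusted p = 0.024). The call between 1000 and 100 µM was lost when any of 4 single arrays was left out: 100 µM replicate 2 (adjusted p = 0.0744), 100 µM replicate 3 (0.0692), 1000 µM replicate 3 (0.0589) or 1000 µM replicate 4 (0.0722). The linear trend over dose rank was 0.36 log2 units per step (limma adjusted p = 3.52e-08).

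Among the 8159 genes tested, 46 had a larger log2 rise than Myc at 100 µM and 20 had a larger one at 1000 µM. Per the design text, the study compared every treated array with every control array and asked for the same direction in all pairs and an average change above 1.75. Without the software's detection and difference calls, which were not used here, Myc met this rule at 100 µM (16 of 16 pairs higher, mean fold 1.86) and at 1000 µM (16 of 16 pairs, mean fold 2.61). The comparisons of 100 with 10 µM (1.74) and of 1000 with 100 µM (1.41) fell below that fold. The other tested members did not meet the rule at any dose against 0 µM. Within replicate 1 alone, the log2 difference of Myc was 0.71 at 100 µM and 1.09 at 1000 µM, and within replicates 2 to 4 it was 0.93 and 1.47 (limma adjusted p = 1.04e-05 and 2.88e-08).

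Across the network, few other probe sets passed the test. At 1 µM 0 of the 8 tested probe sets were called, where 0% of all 14379 were, and at 10 µM 0 of 8, where 0.00695% of all were. The counts of members at unadjusted p under 0.05 in limma were 0 and 0 as well. At 100 µM against 0 µM, 1 of 8 was called (Myc, higher), where 1.22% of all tested probe sets were called in either direction and 0.862% were higher. At 1000 µM, 2 of 8 were called, Myc and 1 probe set of Mxi1, both higher, where 10.9% of all were called, 2.46% higher and 8.48% lower. At 100 µM against 10 µM, 1 of 8 was called (Myc, higher), where 0.932% of all were called and 0.772% were higher. At 1000 µM against 100 µM, 2 of 8 were called, 1 higher and 1 lower, where 4.35% of all were called, 0.744% higher and 3.6% lower. By the plainer criterion that the 4 arrays of a dose all lie above the 4 of its comparator, 1 of 8 was separate at 100 µM against 0 µM (3.79% of all) and 2 of 8 at 1000 µM against 0 µM (6.66% of all). At 1000 µM against 100 µM, 2 of 8 were separate and higher (4.44% of all) and 1 of 8 separate and lower (10.4% of all). The median log2 difference of the 8 probe sets was -0.22 at 100 µM and -0.14 at 1000 µM, beside -0.03 and -0.07 over all tested probe sets. Of these 8, 3 represent Mxd4 and 1 is Myc itself.

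**Figure D2:**
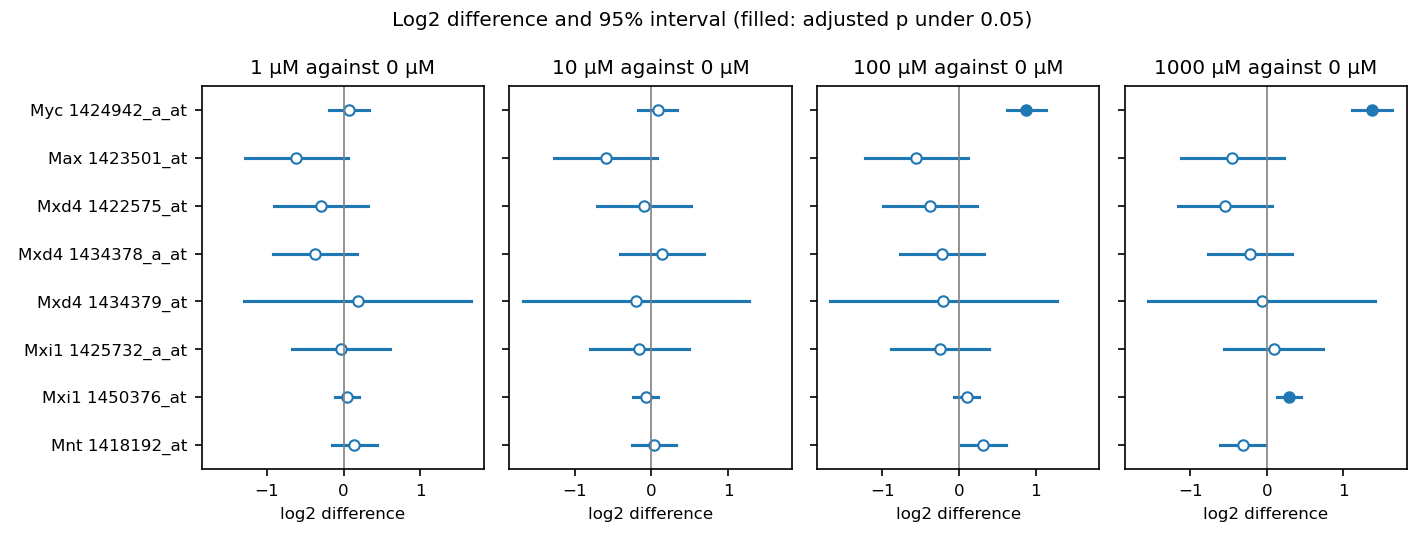
Log2 difference from untreated myotubes (x axis, log2 units) with its 95% interval for the 8 tested probe sets (y axis), 1 panel per dose of 1, 10, 100 and 1000 µM. Filled points passed limma's adjusted p under 0.05. The filled points are Myc at 100 µM (0.88) and 1000 µM (1.37) and Mxi1 1450376_at at 1000 µM (0.29), and the widest intervals belong to Mxd4 1434379_at.

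Max, the shared partner of all the other members, has 1 probe set, 1423501_at, which reached the filter level on 18 of 20 arrays. Its signals in replicates 1 to 4 were 210.3, 204.2, 134.6 and 202.9 in untreated myotubes, 161.4, 116.2, 114.4 and 99.0 at 1 µM, 194.6, 246.2, 75.1 and 62.2 at 10 µM, 147.1, 121.1, 134.0 and 105.3 at 100 µM, and 119.5, 175.6, 140.5 and 115.0 at 1000 µM. Every treated group overlapped the untreated one, and the 10 µM arrays spread over the widest range. The mean signal was lower at each dose (122.7 ± 26.9, 144.5 ± 90.3, 126.9 ± 17.9 and 137.6 ± 27.6 at 1, 10, 100 and 1000 µM) than in untreated myotubes (188.0 ± 35.7; SD, n = 4 each). None of these differences passed the test: the log2 differences were -0.62, -0.60, -0.56 and -0.45, with limma adjusted p from 0.412 to 0.963. At 1000 µM the 95% interval of the log2 difference ran from -1.12 to 0.23, so neither a clear loss nor a small gain of Max mRNA can be told from no change here.

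Mxi1, a MAX partner that recruits SIN3 and opposes MYC, was slightly higher at the highest dose on the brighter of its 2 probe sets. For 1450376_at the signals in replicates 1 to 4 were 530.2, 472.0, 485.5 and 559.1 in untreated myotubes, 543.4, 506.5, 535.6 and 523.4 at 1 µM, 457.7, 505.5, 514.0 and 463.7 at 10 µM, 531.0, 545.2, 545.7 and 564.3 at 100 µM, and 577.1, 652.4, 615.7 and 652.2 at 1000 µM. The arrays at 1000 µM lay above all the others, and those at 1, 10 and 100 µM overlapped the untreated group. The mean was 624.3 ± 35.9 at 1000 µM and 511.7 ± 40.2 in untreated myotubes (SD, n = 4 each). The log2 difference at 1000 µM was 0.29 ± 0.08 (SE, 95% interval 0.13 to 0.45), 1.22-fold, with limma adjusted p = 0.0198. At 100 µM it was 0.10 (adjusted p = 0.711), and the trend over dose rank was 0.06 per step (adjusted p = 0.0216).

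The Mxi1 call was a small one. It was lost when any of 4 single arrays was left out, 0 µM replicate 2 (adjusted p = 0.07), 0 µM replicate 3 (0.0537), 1000 µM replicate 2 (0.0644) or 1000 µM replicate 4 (0.0627), and without each of the same arrays the trend call was lost too (0.0519 to 0.0658). With each array centred on its median instead, the log2 difference was larger, 0.49, as the lower medians at 1000 µM were then removed, and after quantile normalization it was 0.39. Within replicate 1 alone it was 0.12, and within replicates 2 to 4 it was 0.34 (adjusted p = 0.00516). The second probe set, 1425732_a_at, read 143.7, 180.4, 204.7 and 283.2 at 1000 µM, against 191.6, 177.4, 222.1 and 155.7 in untreated myotubes. Its groups overlapped and its log2 difference was 0.09 ± 0.31 (95% interval -0.55 to 0.73, adjusted p = 0.892), an interval that contains the value of the first probe set.

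Mnt, a broadly expressed MAX partner and repressor regarded as the main constitutive antagonist of MYC, differed between the highest doses. For 1418192_at the signals in replicates 1 to 4 were 292.7, 261.1, 262.1 and 212.2 in untreated myotubes, 311.2, 271.8, 277.2 and 267.2 at 1 µM, 221.1, 271.6, 267.6 and 293.6 at 10 µM, 249.3, 300.9, 389.4 and 349.9 at 100 µM, and 193.6, 194.5, 245.4 and 191.8 at 1000 µM. All 4 arrays at 1000 µM lay below all 4 at 100 µM, and each of these groups overlapped the untreated one. Mnt fell at 1000 µM against 100 µM by 0.63 ± 0.14 on the log2 scale (95% interval -0.92 to -0.34), to 0.65 of the level at 100 µM, with limma adjusted p = 0.0103. Against untreated myotubes the log2 differences were 0.32 ± 0.14 at 100 µM (95% interval 0.03 to 0.61, adjusted p = 0.386) and -0.32 ± 0.14 at 1000 µM (-0.61 to -0.03, adjusted p = 0.152). Neither passed the test.

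The difference between 1000 and 100 µM for Mnt was lost under each of the other scalings, with log2 differences of -0.51 (adjusted p = 0.0768) after centring on the median and -0.52 (adjusted p = 0.061) after quantile normalization. At 100 µM replicate 1 went against the rest: its log2 difference from untreated was -0.23, whereas within replicates 2 to 4 it was 0.50 with limma adjusted p = 0.0411. At 1000 µM against 100 µM replicate 1 gave -0.36 and replicates 2 to 4 gave -0.72 (adjusted p = 0.00155). Over all 5 doses, the moderated F-test called 3 of the 8 probe sets, Myc (adjusted p = 2.09e-07), Mxi1 1450376_at (0.0286) and Mnt 1418192_at (0.0455), where 8.01% of all tested probe sets were called. The trend over dose rank called Myc and Mxi1 1450376_at, 2 of 8, both higher, where 11.2% of all were called and 2.82% were higher.

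Mxd4, a MAD-family repressor that is known to rise as cells differentiate, had 3 tested probe sets and no call. For its brightest, 1434378_a_at, the signals in replicates 1 to 4 were 149.8, 295.9, 322.5 and 243.3 at 1000 µM, against 182.7, 298.9, 334.8 and 352.9 in untreated myotubes. At 100 µM they were 139.6, 287.9, 265.2 and 324.2. The groups overlapped, and the log2 difference at 1000 µM was -0.22 ± 0.26 (95% interval -0.77 to 0.33, limma adjusted p = 0.647). The values of the other probe sets at 1000 µM were -0.06 ± 0.71 for 1434379_at and -0.55 ± 0.29 for 1422575_at (adjusted p = 0.245 for the second).

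Replicate 1 set much of the spread of Mxd4 on 1434379_at and 1434378_a_at. On 1434379_at the 5 replicate 1 arrays read 29 to 107.6, while the other 15 read 214.3 to 366.9, without overlap, and the mean log2 gap was -2.21. On 1434378_a_at the replicate 1 arrays read 139.6 to 246.8 and the others 233.1 to 352.9, a mean log2 gap of -0.76. Replicate 1 was the lower at all 5 doses on both. On 1422575_at replicate 1 was instead higher on average, by 0.48, and its standard error at 1000 µM changed little with a batch term, from 0.29 to 0.25. With replicate 1 as a batch term, the standard error of 1434378_a_at fell to 0.12 and its moderated F-test over the 5 doses passed (adjusted p = 0.0212), while no single dose did against 0 µM: 1 µM was nearest, with a log2 difference of -0.38 (adjusted p = 0.196). What sets replicate 1 apart was not tested.

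Mycn and Mxd1 were at the bottom of the array's range. Mycn, the MYC relative of embryonic and neural tissue, had signals of 2.1 to 87.9 over its 3 probe sets, and each reached the filter level on 0 of 20 arrays. Mxd1, the founding MAD repressor, had 4.9 to 32.2 and likewise reached it on 0 arrays. The remaining untested probe sets were Mxd4 1422574_at (20.3 to 120.5, above the filter on 2 arrays) and Mnt 1418193_at (1.3 to 23.2, above it on 0 arrays). In a fit without the filter, 0 of these 6 probe sets were called by limma in any comparison with 0 µM, and 1 had an unadjusted p under 0.05. At 1000 µM, 1417155_at of Mycn gave a log2 difference of -1.71 ± 0.74 (adjusted p = 0.207) and Mxd1 gave -1.15 ± 0.63 (adjusted p = 0.353). At such signals neither a level nor an order among doses can be given.

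The genes whose pattern over the 20 arrays was most like that of Myc were Oser1 (Pearson r = 0.964), Plk2 (0.956), Gadd45g (0.954) and Btg2 (0.951). The likeness was computed over 8158 other genes, after removing the mean of replicate 1 and that of the other arrays, and the points share the arrays and the 5 doses. Oser1 is named as an oxidative stress responsive gene, Plk2 and Btg2 are known p53-responsive genes, and Gadd45g is a growth-arrest and stress gene. Their log2 differences at 1000 µM were 0.70, 1.07, 0.76 and 1.49, beside 1.37 for Myc, and at 100 µM they were 0.44, 0.93, 0.50 and 1.19, beside 0.88. For Mxi1 the nearest were Oser1 (r = 0.882), Klf6 (0.859), Bnip3 (0.856) and Surf1 (0.853). Klf6 is a Krüppel-like transcription factor, Bnip3 a mitophagy receptor and Surf1 an assembly factor of cytochrome oxidase.

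Genes around the network were taken from lists by role, each gene represented by its brightest probe set. At 1 µM and at 10 µM, 0 of the 128 tested genes of these lists were called in limma, where 0% and 0.0123% of the 8159 tested genes were, and 3 and 10 of the 128 had an unadjusted p under 0.05. Among the other factors of the extended MYC, MAX and MLX network, 5 of 7 were tested (Mycl, Mxd3, Mlx, Mlxip and Mga) and 0 were called at 100 or 1000 µM (1 and 0 at unadjusted p under 0.05). At 1000 µM all 5 values were below 0, between -0.29 and -0.21, and the list median of -0.24 shrank to -0.04 with median centring and to -0.06 with quantile normalization. Over all genes the medians were -0.02 at 100 µM and -0.05 at 1000 µM. For the percentages that follow, 1.4% of all 8159 genes were called at 100 µM (0.993% higher, 0.404% lower) and 10.7% at 1000 µM (2.64% higher, 8.05% lower).

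The direction of list calls at 1000 µM depended on the scaling over the whole array. Of all tested probe sets, 354 were called higher and 1220 lower at 1000 µM, but 2027 higher and 407 lower with each array centred on its median, and 294 higher and 477 lower after quantile normalization. At 1000 µM against 100 µM the split was 107 higher and 518 lower, and 208 and 193 with median centring. Counts or calls under both other scalings therefore stand beside each list by role below. For the marker lists, the settings in which a call at 1000 µM was kept are given instead.

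Regulators of MYC protein turnover, mainly ubiquitin ligases and kinases, had lower calls alone at 1000 µM, except under median centring, with 1 lower and 3 higher. At 1000 µM 5 of 20 tested genes fell and 0 rose, where 8.05% of all genes were lower, with a list median of -0.19. Skp2, the F-box protein of a ligase that both ubiquitinates and co-activates MYC, fell by 1.25 ± 0.21 on the log2 scale (limma adjusted p = 0.000623), and its other 5 tested probe sets fell too, by 0.66 to 1.18. Fbxw7, the F-box protein that recognises phosphorylated MYC, fell by 0.63 (adjusted p = 0.0128), and its second probe set by 0.51 (0.00483). Fbxl14 fell by 0.67 (adjusted p = 0.0175) and Fbxo32, the muscle ligase atrogin-1, by 0.65 (0.0181), with 0.60 (0.0129) on its second probe set. Huwe1, another ligase, named after its value was seen, fell by 0.30 (0.0157), while its second probe set gave -0.19 (0.509). Over 8 fits with an array left out, Skp2 kept its call in 8, Fbxw7 in 7, Fbxl14 and Huwe1 in 6 and Fbxo32 in 5. The calls numbered 1 lower and 3 higher with median centring, and 2 lower and 0 higher after quantile normalization, with Skp2 called lower under both. At 100 µM 1 gene was called, Plk1, a mitotic kinase, lower by 0.44 (adjusted p = 0.0202), a call lost under median centring and in 6 of 8 fits with an array left out.

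Corepressors and coactivators were called at 1000 µM at a share near that of all genes. Directly between 1000 and 100 µM, 0 of 22 were called in limma (5 at unadjusted p under 0.05), where 4.38% of all genes were. At 100 µM 0 of 22 were called (4 at unadjusted p under 0.05), and at 1000 µM 3 of 22 fell and 0 rose, where 10.7% of all genes were called (8 of 22 at unadjusted p under 0.05). The falls were Crebbp, an acetyltransferase, by 0.59 (limma adjusted p = 0.0309), Trrap, the scaffold that MYC recruits, by 0.45 (0.00297), and Kat2b, another acetyltransferase, by 0.27 (0.0424; second probe set -0.51, 0.278). In 2 further genes, named after their values were seen, the brightest probe set did not pass and another did. Sin3a, the corepressor scaffold, gave -0.25 (adjusted p = 0.186) on its brightest probe set and -0.11 (0.773) on 1419101_at, whereas 1419102_at fell by 0.69 (0.00653). Rbbp7, a histone-binding subunit, gave 0.09 (0.416), whereas 1415775_at rose by 0.23 (0.0384). The list median was -0.06, beside -0.05 over all genes. None of the 3 falls was called under median centring, where 3 other calls were higher, or after quantile normalization. Over 8 fits with an array left out, Trrap kept its call in 8, Crebbp in 3 and Kat2b in 2.

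Among genes that MYC is known to activate, the share called at 1000 µM was near that of all genes. Between 1000 and 100 µM directly, 0 of 44 rose and 2 fell, where 0.76% of all genes were higher and 3.62% lower. At 100 µM 0 of 44 passed the test (4 at unadjusted p under 0.05). A positive log2 difference was seen in 36, and the list median was 0.11. At 1 and 10 µM, where Myc was not called, 32 and 33 of 44 were positive, with medians of 0.06 and 0.07. Directly between 100 and 10 µM, 27 were higher at 100 µM, with a median of 0.03. At 1000 µM 3 rose and 2 fell, 5 of 44 where 10.7% of all genes were called, with a median of 0.14, and 15 of 44 had an unadjusted p under 0.05. The rises were Nme2, a nucleoside diphosphate kinase, by 0.36 (limma adjusted p = 0.0369), Ahcy, which clears S-adenosylhomocysteine, by 0.28 (0.0454), and Ldha, lactate dehydrogenase A, by 0.28 (0.0443). Cdc25a, a phosphatase that drives cell cycle entry, fell by 0.76 (adjusted p = 0.0016), its second probe set gave -0.66 (0.0505), and Cad, of pyrimidine synthesis, fell by 0.26 (0.0409), its second probe set giving -0.26 (0.168). In 4 genes whose brightest probe set did not pass, another probe set rose: Npm1, a nucleolar chaperone, by 0.40 (adjusted p = 0.0467), Nme1, a nucleoside diphosphate kinase, by 0.26 (0.0495), Bcat1, a branched-chain aminotransferase, by 0.34 (0.0397) and Pa2g4, a growth-associated nucleolar protein, by 0.40 (0.0168). Their brightest probe sets gave 0.21 (0.0634), 0.70 (0.052), 0.19 (0.262) and 0.24 (0.132). These 4 were named after their values were seen. With median centring the counts were 19 higher and 1 lower, and after quantile normalization 0 higher and 1 lower. The list median was positive in all 3 scalings, 0.14, 0.34 and 0.11, beside -0.07, 0.13 and 0.01 over all tested probe sets. Ahcy lost its call in each of 8 fits with an array left out, Nme2, Ldha and Cad in 6 of 8, and Cdc25a in none.

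Genes that MYC is known to repress moved in both directions. At 100 µM 3 of 18 rose and 0 fell: Ddit3, the stress transcription factor CHOP, by 1.12 ± 0.10 (limma adjusted p = 1.72e-06), Gadd45a by 0.59 (0.0483) and Gadd45g by 0.50 (0.0203), both growth-arrest and DNA damage genes. At 1000 µM 3 rose and 1 fell. Cebpd, a C/EBP transcription factor, rose by 0.80 (adjusted p = 0.00483), Gadd45g by 0.76 (0.000108) and Ddit3 by 0.58 (0.00109), while Gas1, a growth-arrest membrane protein, fell by 0.87 (0.0307). The second Cebpd probe set gave -0.02 (adjusted p = 0.989), and that of Gas1 gave -0.45 (0.28). The 3 rises at 1000 µM stood among 7 higher calls with median centring and 3 after quantile normalization, and Gas1 was called under neither. At 100 µM Ddit3 kept its call in all 8 fits with an array left out, Gadd45g in 4 and Gadd45a in 0, and at 1000 µM Gas1 kept its call in 3 of 8 and the 3 rises in 8 of 8.

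**Figure D3:**
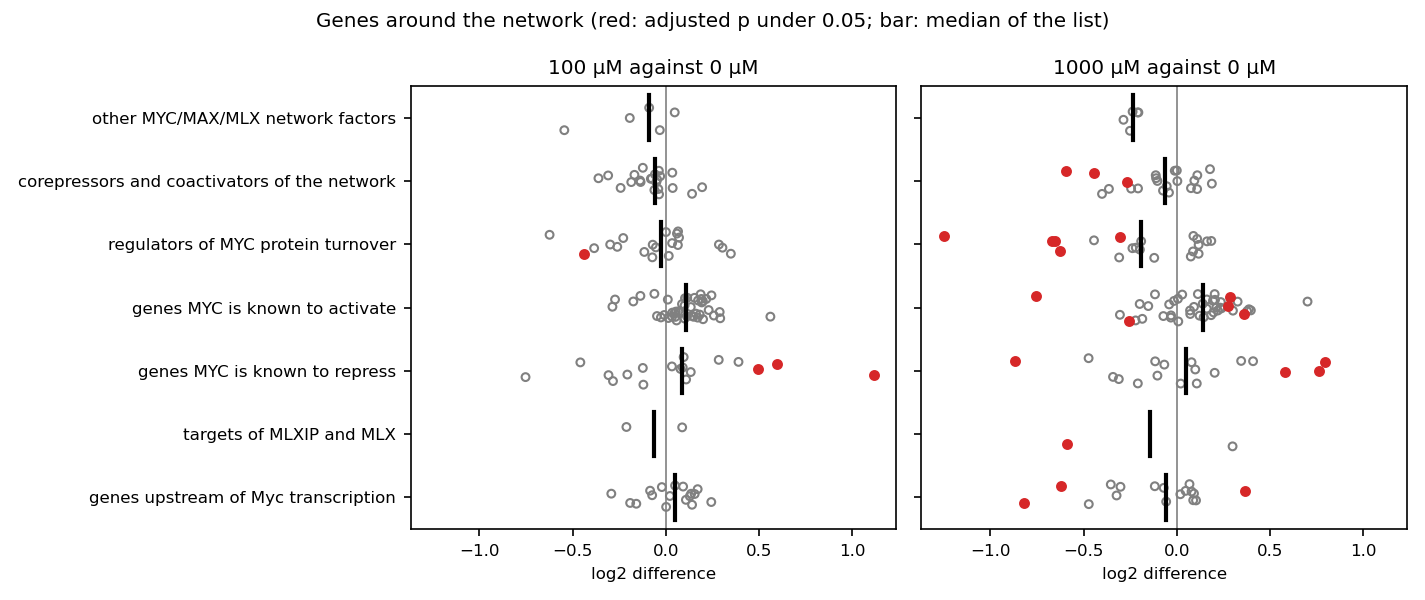
Log2 difference from untreated myotubes (x axis, log2 units) for the tested genes of 7 lists around the network (y axis), at 100 µM on the left and 1000 µM on the right. Each point is a gene, red points passed limma's adjusted p under 0.05, and black bars are list medians. At 1000 µM Skp2 lies farthest left at -1.25, and the genes MYC is known to activate have a median of 0.14.

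Genes upstream of Myc transcription gave 0 calls among 17 at 100 µM (1 at unadjusted p under 0.05), and at 1000 µM 1 rose and 2 fell. Cnbp, a nucleic acid binding protein that acts on the Myc promoter, rose by 0.37 (limma adjusted p = 0.00642), while its second probe set gave 0.10 (0.809). Foxo1, a forkhead factor that opposes growth programmes, fell by 0.82 (2e-04), and Axin2, a feedback inhibitor of Wnt signalling, by 0.62 (0.0101). The Foxo1 probe sets disagreed in part: 1416983_s_at fell by 0.36 at 1000 µM (adjusted p = 0.0434), and 1416981_at gave -0.21 there (0.373) but rose by 0.66 at 100 µM (0.0164). The calls numbered 1 higher and 1 lower with median centring and 0 higher and 1 lower after quantile normalization, with Foxo1 called lower under both. Of the targets of MLXIP and MLX, glucose-sensing relatives in the extended network, 2 were tested, and Txnip, a thioredoxin inhibitor, fell at 1000 µM by 0.59 (adjusted p = 0.0434) and by 0.63 on its second probe set (0.0442). Its call was kept in 1 of 8 fits with an array left out and was lost under both other scalings.

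Markers of cycling cells were set beside these values, because Myc, Skp2, Plk1 and Cdc25a are also genes of proliferating cells. The summed signal of 11 cycling or undifferentiated cell markers ran from 9263 to 10759 in untreated myotubes. It was 10387 to 11499 at 1 µM, 10705 to 11377 at 10 µM, 8895 to 9526 at 100 µM and 9718 to 10638 at 1000 µM. At 100 µM 1 of 10 tested markers was lower (Plk1) and 0 were higher, with a median of -0.19. At 1000 µM 1 was higher, Birc5 by 0.34, and 1 lower, Mki67 by 0.50, with a median of -0.04. Over 19 settings Birc5 kept its call at 1000 µM in 19 and Mki67 in 18, lost under median centring. The list medians at 1 and 10 µM were 0.08 and 0.1. The summed signal of the 21 myotube markers was 114871 to 135856 in untreated myotubes. It was 138959 to 141916 at 1 µM, 130116 to 164706 at 10 µM, 132094 to 147903 at 100 µM and 139458 to 149032 at 1000 µM. The arrays at 1 µM thus lay above every untreated array, as did those at 1000 µM. The list medians were 0.12, 0.14, 0.14 and 0.13 from 1 to 1000 µM. Of 20 tested, 17 were positive at 1000 µM and 1 was called, Tnnt3, higher by 0.33. The Tnnt3 call was kept in 11 of 19 settings, among them 3 of 8 fits with an array left out. It was lost after quantile normalization. On probe sets other than the brightest, Kif11, a mitotic kinesin, fell by 0.38 (adjusted p = 0.0299) at 1000 µM. There 4 probe sets of Mef2c, a muscle transcription factor, fell by 0.40 to 0.64. Both genes were named after their values were seen, and neither was called on its brightest probe set. The part of cell composition in the values of Myc and its neighbours was not tested.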

How the data were processed

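Values are probe set intensity signals on a linear scale, deposited by the authors and made with Affymetrix Microarray Suite 5.0, per the submitters' processing notes and the design text. Each array's 2% trimmed mean was 500.1 to 500.2, so the deposited intensities carry a common scaling; array medians ran from 150.9 to 185.1. Arrays have no read depth, and 4 arrays per dose limit the precision.

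The trimmed means were equalised, values floored at 1 and log2 taken. Testing required a signal at or above the 40th percentile of the array on 4 or more of the 20 arrays. All 5 groups entered 1 fit with limma 3.58.1 (R 4.3.3; eBayes with trend), with Benjamini-Hochberg adjustment over 14379 probe sets; calls are at adjusted p under 0.05, two-sided. "Rose" and "fell" refer to called changes.

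All probe sets of the 7 genes are named; from the lists, the 4 called members with the largest log2 difference per direction; for likeness, the 4 genes with the highest Pearson r. The members and lists were chosen with earlier results of these data known. Groups came from the sample titles; 1 title at 10 µM has no number, and that array is called replicate 1 by order only, and was placed with the arrays numbered 1 in the batch alternatives because its values group with theirs. The alternatives were other scalings, floors, filters, batch and replicate terms, array weights, sample subsets and single arrays left out. The label field names 2 dyes, but each array was treated as 1 channel.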

Additional observations from a re-analysis of the deposited data

Results flagged for a closer look

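Within 40 groups of 4 arrays (8 tested probe sets at 5 doses), an array was set apart when its gap to the nearest other array, divided by the group's range, exceeded Dixon's critical value at 95%. This held in 7 groups, and chance gives about 1 in 20. Of the 7, 4 were the replicate 1 array of Mxd4 1434379_at, the lowest of its group: 61.4 at 0 µM (gap over range 0.914, others 254.3 to 290.5), 53.9 at 10 µM (0.858, others 214.3 to 269.3), 29 at 100 µM (0.863, others 258.9 to 366.9) and 62.8 at 1000 µM (0.941, others 245.5 to 267.5). For Mxd4 1422575_at, 1 µM replicate 3 was lowest, 47.0 beside 104.3 to 109.0 (0.948).

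For Max, untreated replicate 3 was lowest, 134.6 beside 202.9 to 210.3 (0.92). This array and the other untreated arrays all lie within the range of the treated arrays, 62.2 to 246.2. For Mnt 1418192_at, 1000 µM replicate 3 was highest, 245.4 beside 191.8 to 194.5 (0.943), which is still below the lowest array at 100 µM, 249.3.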

How the results depend on the processing

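Myc was called higher at 100 and 1000 µM against 0 µM in all 19 settings run, with log2 differences of 0.82 to 0.98 and 1.31 to 1.58. At 100 µM against 0 µM the count of called members was 2 in place of 1 with replicates 2 to 4 only and with array weights, where Mnt joined (adjusted p = 0.0411 and 0.0154). At 1000 µM against 0 µM it was 1 in place of 2 with only the groups compared (Mxi1, adjusted p = 0.0688), and 1 to 2 over fits leaving out an array. At 1000 µM against 100 µM it was 1 in place of 2 with median centring, quantile normalization or only the groups compared (Mnt, adjusted p = 0.0768, 0.061 and 0.0507), 3 with array weights, where Mxi1 joined (0.0143), and 1 to 2 with an array left out. With an array left out the trend gave 1 to 2 and the F-test 1 to 3. With the replicate block, on the 19 numbered arrays, the counts were 0, 0, 1, 2, 1 and 2 in the 6 comparisons, 2 for the trend and 3 for the F-test, as without it, while calls over all probe sets at 1000 µM against 0 µM numbered 2854 in place of 1574. Deviations of same-numbered arrays correlated at 0.01 to 0.514 over 36 pairs, above 0.1 in 33. Pairs numbered 1 gave 0.462 to 0.514, and pairs of the other numbers gave 0.01 to 0.261. Pairs of different numbers gave -0.388 to 0.325 over 108 pairs. Only 4 of 19 arrays correlated best with their own number, so the numbers were not taken to pair the samples. No called difference of a member turned its sign. The causes were not tested.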
